A study of Mus musculus with 6 samples.

Results

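The clustered histone genes of 4T1 cells, a mouse mammary carcinoma line of the BALB/c strain, were compared between wild-type (WT) cells and 2 Ki-67 knockout clones. Members were the protein-coding genes of GENCODE release M21 whose symbols start with Hist1h, Hist2h, Hist3h or Hist4h, which gave 67 of the 54146 genes counted. They comprised 6 H1, 18 H2A, 18 H2B, 12 H3 and 13 H4 genes, and 57 of them had enough reads to be tested. Each of the 3 groups, WT, KO clone 1 and KO clone 2 (both with the genotype Mki67-/-), had 2 libraries of ribosome-depleted, strand-specific total RNA, and all cells were grown in the same DMEM with serum. Each knockout group is 1 clone, so an effect of the missing gene and a difference that arose between clones cannot be told apart. Nothing in the labels tells if paired libraries are separate cultures or repeat preparations, so each p-value reflects how far single libraries of a group lay apart, possibly for technical reasons alone.

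Clustered histone genes encode the linker histone H1 and the core histones H2A, H2B, H3 and H4 around which DNA is wound. Their RNAs are made mainly in S phase, when new DNA has to be packaged, under the control of NPAT at histone locus bodies. Most carry no poly(A) tail and end instead just after a short stem-loop, which is bound by SLBP and cut with the help of the U7 snRNP. Ribosome-depleted total RNA keeps such RNAs, whereas poly(A) selection would lose most of them. In bulk RNA, a larger share of cells in S phase and more histone RNA per cell cannot be told apart.

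The stem-loop that defines these RNAs was looked up in the GENCODE M21 transcripts (GRCm38) with the histone 3′ stem-loop consensus. It was found in 46 of the 67 members and in 88 of 55383 other genes (0.159%). The sequences are shown because the classes differ in them. They are taken from a member of each class that was called higher in both clones. Hist1h4d follows, which of the clones was called higher in KO clone 2 only, then Hist1h2bf and Hist4h4, called higher in neither. Capitals mark the 16 bases of the stem-loop, with 5 bases on each side.
Hist1h1e: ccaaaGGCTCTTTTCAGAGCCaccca
Hist1h2ac: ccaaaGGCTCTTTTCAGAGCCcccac
Hist1h2bk: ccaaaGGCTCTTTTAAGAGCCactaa
Hist1h3c: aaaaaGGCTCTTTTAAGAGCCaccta
Hist1h4i: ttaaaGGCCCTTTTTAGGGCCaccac
Hist1h4d: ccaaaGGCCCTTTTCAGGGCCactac
Hist1h2bf: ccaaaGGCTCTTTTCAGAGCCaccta
Hist4h4: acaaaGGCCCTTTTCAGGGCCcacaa
The stem-loop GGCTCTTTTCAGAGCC was the most common, in 26 members (3 H1, 10 H2A, 8 H2B and 5 H3 genes), and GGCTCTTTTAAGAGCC was found in 6. H4 genes carried other stems: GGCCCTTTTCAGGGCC in 7 members, all of them H4, and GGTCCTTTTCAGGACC in 2, also H4. Many of the members without a match have a transcript model that covers little more than the coding sequence, such as Hist1h2ak with 393 bases, so a missing match says only that these letters are not in the model.

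Promoters are shown because many members changed in the same direction and hold short sequences that fewer of all promoters hold. The windows run from 250 bases before to 50 after the start of the RefSeq gene model (GRCm38.p6), and 62 of the 67 members had one. Capitals mark the CCAAT box, the TATA box written as TATAAA, the octamer written as ATTTGCAT, and an element known from H1 genes written as AAACACA. All were searched on both strands, and none of these strings contains another. The most abundant member per kilobase in each class is given, followed by Hist1h2bf, the H2B gene that fell in both clones.
Hist1h1b, chr13:21780576-21780875, minus strand: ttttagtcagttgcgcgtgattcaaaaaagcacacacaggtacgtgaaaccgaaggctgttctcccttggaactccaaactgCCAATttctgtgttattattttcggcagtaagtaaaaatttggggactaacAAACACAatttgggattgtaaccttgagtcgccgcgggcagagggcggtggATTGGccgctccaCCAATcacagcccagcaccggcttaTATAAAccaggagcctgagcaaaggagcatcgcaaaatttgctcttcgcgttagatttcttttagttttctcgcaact
Hist1h2ak, chr13:21753863-21754162, minus strand: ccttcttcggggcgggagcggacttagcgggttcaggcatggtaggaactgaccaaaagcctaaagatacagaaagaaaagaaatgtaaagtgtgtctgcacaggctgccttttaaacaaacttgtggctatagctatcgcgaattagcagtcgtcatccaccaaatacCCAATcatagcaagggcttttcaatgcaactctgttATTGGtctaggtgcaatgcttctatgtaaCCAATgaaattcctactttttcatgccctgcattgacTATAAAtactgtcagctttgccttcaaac
Hist2h2bb, chr3:96269450-96269749, plus strand: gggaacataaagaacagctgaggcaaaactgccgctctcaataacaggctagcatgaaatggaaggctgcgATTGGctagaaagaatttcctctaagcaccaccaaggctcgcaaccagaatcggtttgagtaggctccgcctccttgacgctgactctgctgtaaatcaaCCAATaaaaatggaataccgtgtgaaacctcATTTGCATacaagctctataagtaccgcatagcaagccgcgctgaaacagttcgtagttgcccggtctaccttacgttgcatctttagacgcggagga
Hist1h3b, chr13:23752095-23752394, plus strand: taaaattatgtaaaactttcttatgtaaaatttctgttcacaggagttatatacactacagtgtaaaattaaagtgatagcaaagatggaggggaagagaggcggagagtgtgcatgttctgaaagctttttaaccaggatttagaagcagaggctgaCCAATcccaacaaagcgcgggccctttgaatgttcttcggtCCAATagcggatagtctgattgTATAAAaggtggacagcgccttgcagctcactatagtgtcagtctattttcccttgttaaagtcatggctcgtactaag
Hist1h4k, chr13:21750504-21750803, minus strand: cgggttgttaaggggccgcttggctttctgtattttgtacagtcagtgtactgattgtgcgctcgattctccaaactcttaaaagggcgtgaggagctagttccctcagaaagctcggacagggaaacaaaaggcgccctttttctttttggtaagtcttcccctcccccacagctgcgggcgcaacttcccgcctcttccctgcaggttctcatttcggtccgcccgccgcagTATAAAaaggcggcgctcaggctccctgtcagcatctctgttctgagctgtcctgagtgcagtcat
Hist1h2bf, chr13:23574158-23574457, minus strand: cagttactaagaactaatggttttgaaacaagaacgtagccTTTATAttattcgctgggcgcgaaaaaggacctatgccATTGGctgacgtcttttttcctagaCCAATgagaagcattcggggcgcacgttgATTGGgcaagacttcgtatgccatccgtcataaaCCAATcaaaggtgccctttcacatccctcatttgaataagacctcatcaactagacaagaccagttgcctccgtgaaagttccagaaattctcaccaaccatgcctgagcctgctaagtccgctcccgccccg
CCAAT was present in 53 of the 62 member windows (85.48%) against 37.36% of all 32544 promoter windows of this length. All 6 H1, 18 H2A, 16 H2B and 10 H3 windows held it, and 3 of 12 H4 windows did. TATAAA was present in 35 member windows (56.45%) against 13.57% of all. ATTTGCAT was found in 7 H2A and 6 H2B windows and in no H1, H3 or H4 window, against 1.75% of all, and AAACACA was found in 5 of the 6 H1 windows against 7.2% of all. The Hist1h2bf window holds CCAAT, whereas TATAAA is present in it only on the other strand, as TTTATA. The same holds for Hist1h2bn, Hist1h2bp and Hist1h2bk. In each of these H2B genes that site is the TATAAA in the window of the adjacent H2A gene, which is Hist1h2ad for Hist1h2bf. Where members lie head to head and close together, their windows overlap, and the same site can count for both genes. The octamer of Hist1h2ah, for example, is also that of Hist1h2bk. The counts of windows are therefore not counts of separate sites. A match is a description of the sequence and not evidence of binding.

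Reads assigned to genes ranged from 10428970 to 22658499 per library, at which 3 counts correspond to 0.132 to 0.288 CPM (read counts scaled to library size). Mki67, which encodes Ki-67, had 736 and 647 CPM in WT, 85.8 and 102 in KO clone 1, and 39.9 and 52.8 in KO clone 2. The epithelial markers summed to 3286 to 4570 CPM in all 6 libraries with 1 of the 9 (Krt5) at 0 throughout. The 9 immune markers summed to 11.7 and 16.5 CPM in WT and to 4.90 to 6.60 CPM in the clones, with Cd3e and Adgre1 among those at 0. The 7 fibroblast markers summed to 39.4 to 39.5 CPM in WT and 14.5 to 14.7 in the clones, nearly all of it Pdgfra, and the 5 endothelial markers to 9.71 to 14.9 in all libraries. Their part in the histone results was not tested.

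Clustered histone RNA was more abundant in both knockout clones, in all 5 classes. The 67 genes together held 7519 and 7552 CPM in WT, 10365 and 10582 in KO clone 1, and 15398 and 10520 in KO clone 2, so the mean summed level was 1.39 times that of WT in KO clone 1 and 1.72 times in KO clone 2. All 4 knockout libraries lay above both WT libraries. As a share of all gene reads this was 0.731% and 0.759% for WT, with 1.04% to 1.53% for the clones.

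Linker histone genes (H1) summed to 2006 and 2404 CPM in WT, 3064 and 2744 in KO clone 1, and 4310.0 and 3229.9 in KO clone 2. H2A genes summed to 889 and 707 CPM in WT, 1269 and 1354 in KO clone 1, and 1894 and 1159 in KO clone 2. H2B genes summed to 1767 and 1647 CPM in WT, 2195 and 2266 in KO clone 1, and 3200.4 and 2066 in KO clone 2. In each of these classes the knockout libraries did not overlap with WT. H3 genes summed to 1165 and 1062 CPM in WT, 1693 and 1757 in KO clone 1, and 2312 and 1608 in KO clone 2. H4 genes summed to 1691 and 1732 CPM in WT, 2144 and 2461 in KO clone 1, and 3681 and 2457 in KO clone 2. These classes did not overlap with WT either. The ratios to WT ran from 1.31 (H2B) to 1.64 (H2A) in KO clone 1 and from 1.54 (H2B) to 1.91 (H2A) in KO clone 2. The H2B sum includes Hist2h2bb, which had 554 CPM on average over all libraries and did not rise. Its log2 fold change was -0.16 for the mean of both clones, so this gene lowers the H2B ratios. The makeup of the pool was similar in all libraries, where H1 genes gave 25.9% to 31.8% of its CPM and H2A genes 9.36% to 12.8%. Sums over members carry no test here.

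**Figure D1:**
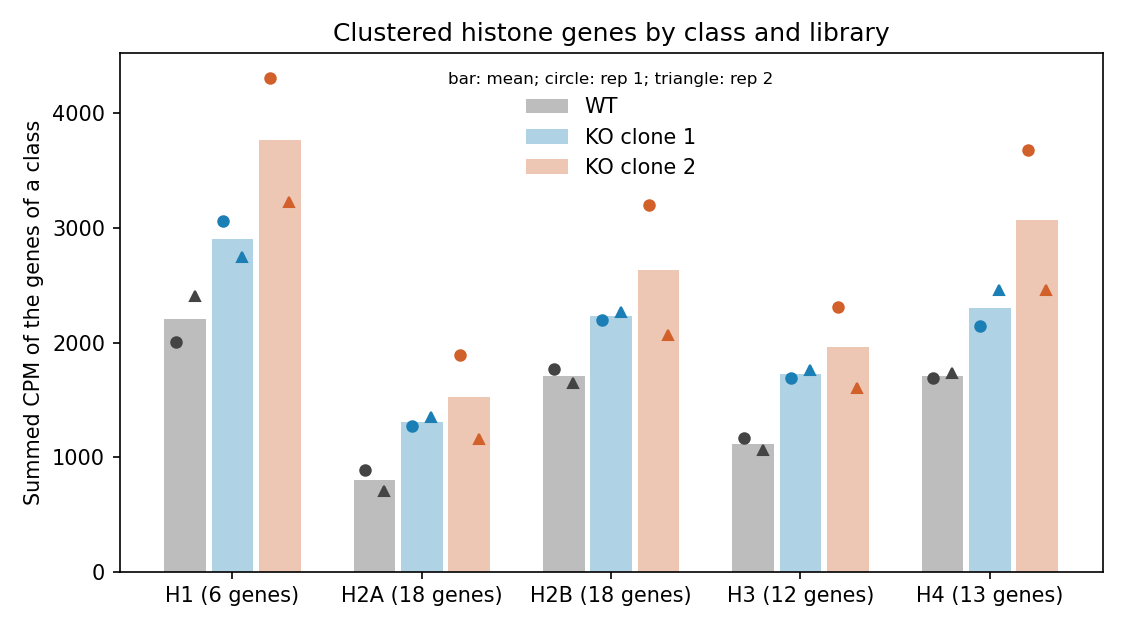
Summed CPM (vertical axis) of the H1, H2A, H2B, H3 and H4 genes (horizontal axis) in WT, KO clone 1 and KO clone 2. Bars are means of 2 libraries, circles are replicate 1 and triangles replicate 2. In every class both WT libraries lie below all 4 knockout libraries, and KO clone 2 replicate 1 is the highest library.

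Gene by gene, the quasi-likelihood test of edgeR, adjusted over all 13755 genes tested by the Benjamini-Hochberg method, called 30 of the 57 tested members higher and 3 lower in KO clone 1 against WT. Across all genes tested 50.4% were called in that comparison, 24.5% higher and 26% lower. In KO clone 2, 37 members were called higher and 3 lower, where 53.1% of all genes were called (25.2% higher, 27.9% lower). For the mean of both clones against WT, 36 members were higher and 2 lower, where 55.8% of all genes were called (26.5% higher, 29.3% lower). Calls were common in every comparison, and among the members most of them were in 1 direction. The median log2 fold change of the members was 0.61 in KO clone 1, 0.90 in KO clone 2 and 0.75 for the mean, against -0.01, -0.02 and -0.02 over all genes tested. In KO clone 2 that median was 0.59 without replicate 1 of the clone and 1.10 without replicate 2. The comparisons of the clones with WT share the WT libraries and so are not independent.

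In both clones, 27 members were called higher (17.8% of all genes were) and 1 lower (19.8% of all genes were). In 44 of the 57 members all 4 knockout libraries lay above both WT libraries, which held for 27.7% of all genes. In 2 members, Hist1h2bf and Hist3h2ba, all 4 lay below (30.1% of all genes), and in 11 the groups overlapped. Among the 5 classes, H3 had 10 of 11 tested members called higher for the mean of both clones, H1 had 4 of 5, H2B 10 of 16, H4 8 of 12 and H2A 4 of 13. Of all genes tested 26.5% were called higher in that comparison, and the H2A count was near this share. The class with the lowest share of calls, H2A, had the highest median log2 fold change, 1.06, against 0.73 in H1, 0.73 in H2B, 0.67 in H3 and 0.81 in H4. The 2 WT libraries also differed most in H2A, where 5 of 13 tested genes differed by over 1.5-fold and the median ratio of replicate 1 to replicate 2 was 1.47.

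**Figure D2:**
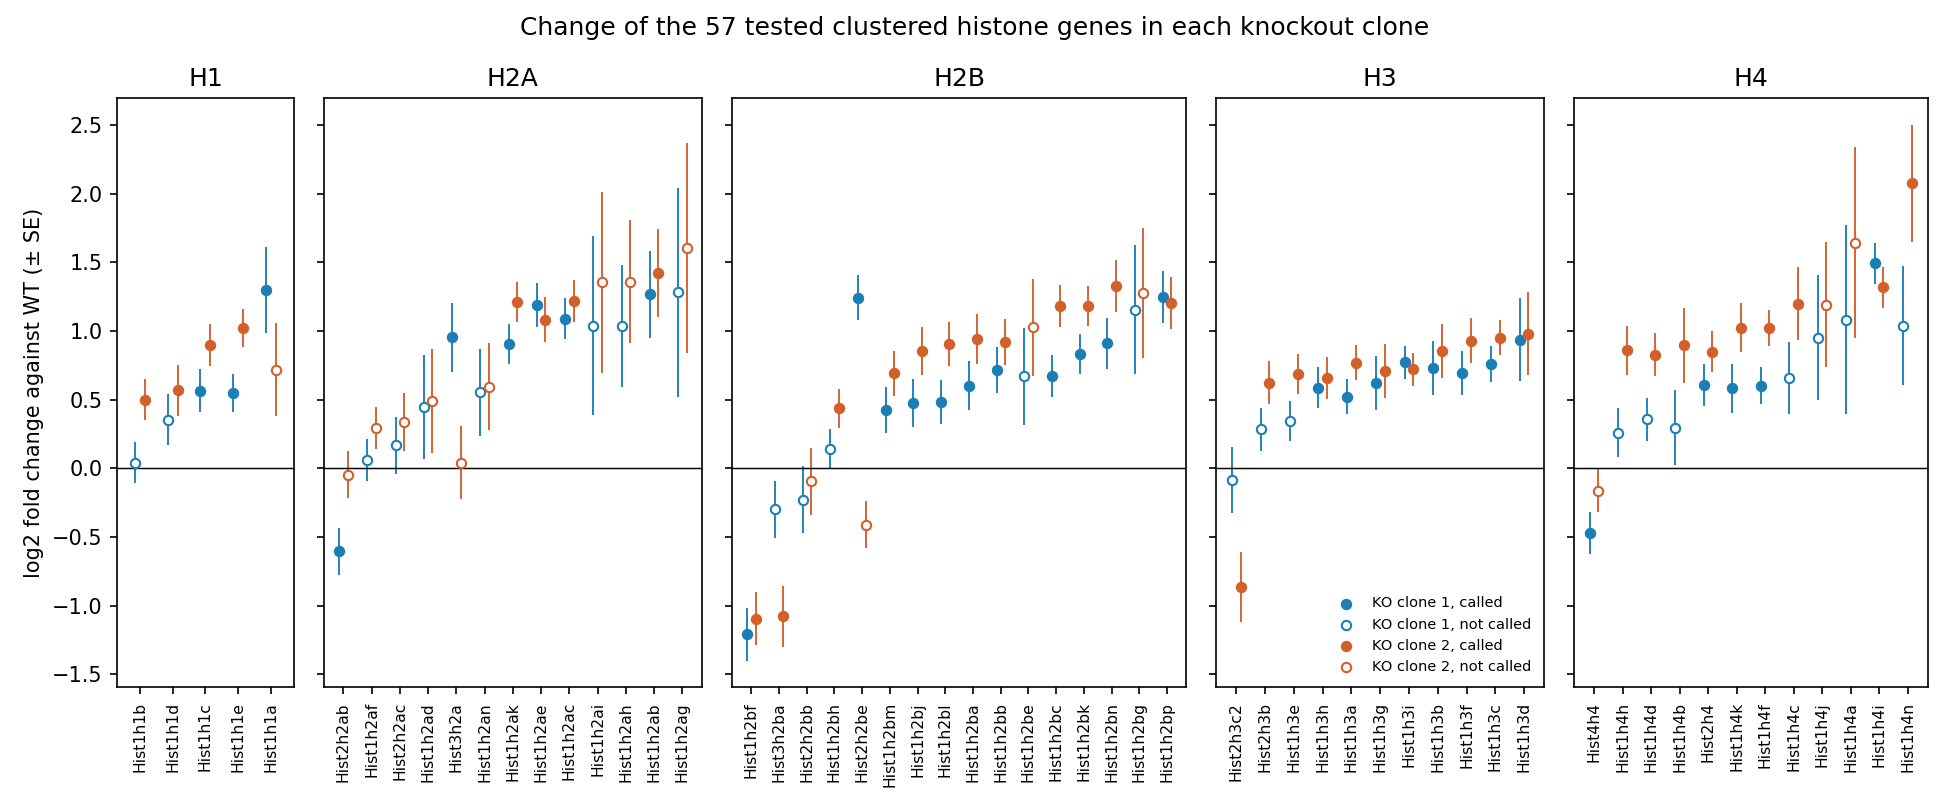
Log2 fold change against WT (vertical axis, bars are standard errors) of the 57 tested members (horizontal axis), grouped by class, in KO clone 1 (blue) and KO clone 2 (orange). Filled points were called at an adjusted p under 0.05. Most points lie above 0, Hist1h2bf lies below 0 in both clones, and Hist2h2be lies above 0 in KO clone 1 and below 0 in KO clone 2.

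In what follows, changes are log2 fold changes ± SE for the mean of both clones against WT unless a clone is named. H1 proteins bind the linker DNA between nucleosomes. Hist1h1e had 605 and 705 CPM in WT, 1008 and 911 in KO clone 1, and 1488 and 1172 in KO clone 2. Its log2 fold change for the mean of both clones was 0.79 ± 0.12 (SE; adjusted p = 0.000105), and the groups did not overlap. Hist1h1c had 396 and 528 CPM in WT against 721 and 649 in KO clone 1 and 975 and 749 in KO clone 2, a change of 0.73 ± 0.14 (adjusted p = 0.000529) with every knockout library above WT. Hist1h1d, at 474 and 633 CPM in WT, 783 and 634 in KO clone 1, and 954 and 689.5 in KO clone 2, rose less, by 0.46 ± 0.16 (adjusted p = 0.0325), and was no longer called without WT replicate 1 (0.28, adjusted p = 0.224), without KO clone 1 replicate 1 (0.38, adjusted p = 0.0624) or without KO clone 2 replicate 1 (0.34, adjusted p = 0.0923), nor with chromosome shifts removed (0.38, adjusted p = 0.139). The rare Hist1h1a, at 0.888 and 1.12 CPM in WT, 2.07 and 3.01 in KO clone 1, and 1.77 and 1.64 in KO clone 2, was called at 1.01 ± 0.30 (adjusted p = 0.0104), and DESeq2 gave an adjusted p of 0.0514. By clone, Hist1h1d was not called in KO clone 1 (0.36 ± 0.18, adjusted p = 0.134) and Hist1h1a was not called in KO clone 2. Hist1h1b was not called for the mean of both clones. It had 529.8 and 537 CPM in WT against 551 and 548 in KO clone 1 and 891 and 618 in KO clone 2, so its KO clone 1 libraries were close to WT. Its change was 0.04 ± 0.15 (adjusted p = 0.828) in KO clone 1 and 0.50 ± 0.15 (adjusted p = 0.0111) in KO clone 2, the latter falling to 0.22 (adjusted p = 0.149) without KO clone 2 replicate 1. Hist1h1t, the testis linker histone, had 2 reads in all 6 libraries together and was not tested.

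H2A and H2B form the dimers that flank the H3-H4 tetramer. Among the H2A genes, Hist1h2ac had 43.9 and 45.8 CPM in WT, 95.4 and 95.7 in KO clone 1, and 123 and 85.4 in KO clone 2. Its log2 fold change was 1.15 ± 0.14 (adjusted p = 1.08e-05) over both clones, and the knockout libraries had at least 85.4 CPM against at most 45.8 in WT. Hist1h2ak, with 171 and 162 CPM in WT against 315 and 309.8 in KO clone 1 and 451 and 321 in KO clone 2, rose by 1.06 ± 0.13 (adjusted p = 1.37e-05). Hist1h2ae had 19.9 and 17.4 CPM in WT, 42.0 and 43.0 in KO clone 1, and 46.5 and 32.5 in KO clone 2 and rose by 1.14 ± 0.15 (adjusted p = 2.36e-05). All 3 were called in each clone. The remaining H2A gene called higher for the mean was Hist1h2ab, at 1.35 ± 0.29 (adjusted p = 0.0119). That call was lost without WT replicate 2 (1.10, adjusted p = 0.0958) and without KO clone 1 replicate 2 (1.32, adjusted p = 0.0628).

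The H2A gene with the next highest mean CPM after Hist1h2ak, Hist2h2ac, was not called. It had 197 and 201 CPM in WT, 215 and 232 in KO clone 1, and 316 and 187 in KO clone 2, with groups that overlapped and a change of 0.25 ± 0.18 (adjusted p = 0.269). Hist2h2ab had 45.1 and 36.4 CPM in WT against 26.8 and 26.7 in KO clone 1 and 46.9 and 32.0 in KO clone 2. It was called lower in KO clone 1, at -0.60 ± 0.17 (adjusted p = 0.00955), a call lost without WT replicate 1 (-0.44, adjusted p = 0.0735), and was at -0.04 ± 0.17 (adjusted p = 0.841) in KO clone 2. Hist3h2a, at 4.34 and 2.78 CPM in WT, 6.61 and 6.79 in KO clone 1, and 4.36 and 2.85 in KO clone 2, was called higher in KO clone 1 (0.96 ± 0.25, adjusted p = 0.00643), a call lost without WT replicate 2 (0.63, adjusted p = 0.0806), and stood at 0.04 ± 0.27 (adjusted p = 0.908) in KO clone 2.

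A set of 6 members was at least 2-fold higher for the mean of both clones without being called by edgeR's test: Hist1h2ag, Hist1h2ah, Hist1h2ai, Hist1h2bg, Hist1h4a and Hist1h4j. They were chosen after their values were seen. DESeq2 called Hist1h2ah, Hist1h2bg, Hist1h4a and Hist1h4j higher, and a replicate block called Hist1h2ah (1.24, adjusted p = 0.0123) and Hist1h2bg (1.23, adjusted p = 0.00956). All 4 knockout libraries lay above both WT libraries in each of them, and their adjusted p ran from 0.0718 to 0.183. WT replicate 1 was 1.34 to 2.63 times WT replicate 2 in these genes. Their changes ran from 0.68 to 0.94 without WT replicate 2 and from 1.31 to 2.28 without WT replicate 1. Hist1h2ag, for example, had 25.1 and 9.51 CPM in WT, 37.2 and 45 in KO clone 1, and 73.7 and 29.4 in KO clone 2, and both WT and KO clone 2 were spread more than 2-fold. Its change of 1.44 ± 0.69 had a larger error than the 1.15 ± 0.14 of Hist1h2ac. With unstranded counts Hist1h2ag was at -0.07 and not called, while Hist1h2ah (2.26) and Hist1h2ai (0.93) were called higher.

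Among the H2B genes, Hist1h2bk had 128 and 156 CPM in WT, 265 and 241 in KO clone 1, and 366 and 279.6 in KO clone 2. It rose by 1.01 ± 0.13 (adjusted p = 2.25e-05) over both clones. Hist1h2bb, the second most abundant member per kilobase, had 302 and 273 CPM in WT against 479.7 and 465 in KO clone 1 and 659.6 and 427 in KO clone 2, a change of 0.82 ± 0.15 (adjusted p = 0.000645). Hist1h2bp, a gene of low level, had 5.03 and 4.96 CPM in WT, 11.7 and 12 in KO clone 1, and 13.4 and 9.71 in KO clone 2 and rose by 1.23 ± 0.17 (adjusted p = 4.58e-05). In these 3 genes each knockout library was above both WT libraries. Without WT replicate 2 the call of Hist1h2bb in KO clone 1 was lost (0.65, adjusted p = 0.0617). Hist1h2ba, the testis H2B variant, was present at 8.05 CPM on average in WT and rose by 0.77 ± 0.16 (adjusted p = 0.00112). Its divergent neighbour Hist1h2aa, the testis H2A variant, had between 3 and 13 reads per library and was not tested.

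Hist1h2bf was the 1 member called lower in both clones. At chr13:23573736-23574196 (GRCm38, minus strand), it had 39.4 and 38.1 CPM in WT, 16.6 and 17.0 in KO clone 1, and 22.8 and 13.7 in KO clone 2. Both WT libraries lay far above the knockout libraries, of which the highest had 22.8 CPM. The change was -1.15 ± 0.16 (adjusted p = 5.52e-05) over both clones, -1.21 ± 0.19 in KO clone 1 and -1.09 ± 0.19 in KO clone 2, and it was called in every one of 13 alternative analyses. It begins 184 bases from Hist1h2ad, an H2A gene read in the other direction from the same intergenic stretch. Hist1h2ad had 21.4 and 13.7 CPM in WT, 21.1 and 26.3 in KO clone 1, and 32.0 and 17.0 in KO clone 2, a change of 0.47 ± 0.34 (adjusted p = 0.293) with overlapping groups. Of the 50-base windows in the Hist1h2bf transcript, 34.2% occur in no other annotated gene, so its count rests on part of its length. Its stem-loop has the letters most common among the members.

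The most abundant member per kilobase, Hist2h2bb, did not move with the others. It had 649 and 543 CPM in WT, 475 and 542 in KO clone 1, and 705 and 412 in KO clone 2, with overlapping groups and a change of -0.16 ± 0.21 (adjusted p = 0.55). Without KO clone 2 replicate 1 it was called lower for the mean of both clones (-0.38, adjusted p = 0.0239). The gene lies within an antisense gene model and shares 59.3% of its length with a non-coding gene on its own strand, so its count may be incomplete. Hist3h2ba had 6.71 and 5.67 CPM in WT against 4.63 and 5.35 in KO clone 1 and 3.42 and 2.46 in KO clone 2. It fell by 0.69 for the mean of both clones (SE 0.19, adjusted p = 0.00667), was called in KO clone 2 (-1.08 ± 0.22) and was not called in KO clone 1 (-0.30 ± 0.21, adjusted p = 0.255).

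H3 and H4 form the central tetramer of the nucleosome, and their tails carry most of the known histone marks. Hist1h3c had 93.0 and 84.9 CPM in WT, 153 and 148 in KO clone 1, and 192 and 152 in KO clone 2. It rose by 0.86 ± 0.12 (adjusted p = 3.20e-05) over both clones. Hist1h3i, at 41.6 and 46.8 CPM in WT against 75.1 and 76.2 in KO clone 1 and 77.2 and 68.9 in KO clone 2, rose by 0.75 ± 0.11 (adjusted p = 5.25e-05). In both genes every knockout library lay above both WT libraries, and the widest spread was between the KO clone 2 libraries of Hist1h3c. Hist1h3a had 65.6 and 79.1 CPM in WT, 103 and 105 in KO clone 1, and 134 and 113 in KO clone 2, a change of 0.65 ± 0.11 (adjusted p = 0.000309). The most abundant H3 gene by CPM, Hist1h3f, had 212 and 198 CPM in WT against 327 and 337 in KO clone 1 and 472 and 309.9 in KO clone 2 and rose by 0.81 ± 0.15 (adjusted p = 0.000435). Hist1h3b, the most abundant H3 gene per kilobase, had 229 and 167.8 CPM in WT, 324 and 334 in KO clone 1, and 429 and 287 in KO clone 2 and rose by 0.79 ± 0.18 (adjusted p = 0.00394). Without WT replicate 2 the calls of Hist1h3b (0.52, adjusted p = 0.0762) and Hist1h3f (0.65, adjusted p = 0.0521) in KO clone 1 were lost.

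Hist2h3c2 was the H3 gene called lower. It had 5.92 and 4.96 CPM in WT, 5.38 and 4.77 in KO clone 1, and 3.83 and 2.20 in KO clone 2. It was called lower in KO clone 2 (-0.86 ± 0.26, adjusted p = 0.0119) and stood at -0.09 ± 0.24 (adjusted p = 0.787) in KO clone 1. Without KO clone 2 replicate 2, its lowest library, the call was lost (-0.50, adjusted p = 0.131). Hist2h3c1, its neighbour, had no read in any library, and none of its 50-base windows is unique to it.

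Among the H4 genes, Hist1h4i at chr13:22040636-22041362 had the lowest adjusted p among all members. It had 43.7 and 55.6 CPM in WT, 132 and 148 in KO clone 1, and 138 and 110.1 in KO clone 2, a change of 1.41 ± 0.13 (adjusted p = 1.38e-06) over both clones. The lowest knockout library, in KO clone 2, lay well above the highest WT library. Hist1h4f had 85.8 and 89.6 CPM in WT against 130.2 and 136 in KO clone 1 and 203 and 154 in KO clone 2 and rose by 0.81 ± 0.12 (adjusted p = 6.60e-05). Hist2h4, a Hist2 gene, had 181 and 252 CPM in WT, 316 and 344 in KO clone 1, and 427 and 355 in KO clone 2 and rose by 0.73 ± 0.13 (adjusted p = 0.000442). The H4 gene with the highest CPM, Hist1h4d, had 432 and 431 CPM in WT against 518 and 589 in KO clone 1 and 913 and 619 in KO clone 2. It was called in KO clone 2, at 0.83 ± 0.16 (adjusted p = 0.000691), and not in KO clone 1, at 0.36 ± 0.16 (adjusted p = 0.0727), although leaving out either KO clone 2 library gave a call there (0.36, adjusted p = 0.0206 and 0.0211). Hist1h4h had 203 and 209.7 CPM in WT, 235 and 259 in KO clone 1, and 459 and 289.7 in KO clone 2. It rose by 0.56 ± 0.16 (adjusted p = 0.0109), a call lost without WT replicate 1 (0.54) or WT replicate 2 (0.59). In KO clone 1 alone it was not called (0.26 ± 0.18, adjusted p = 0.249).

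Hist4h4, which lies alone on chromosome 6 at chr6:136801553-136804415, was not called higher. It had 237 and 302 CPM in WT, 180.2 and 209 in KO clone 1, and 277 and 206 in KO clone 2, and the KO clone 2 libraries overlapped with WT. It was called lower in KO clone 1, at -0.47 ± 0.16 (adjusted p = 0.0224), a call lost without WT replicate 2 (-0.29, adjusted p = 0.175) or KO clone 1 replicate 1 (-0.37, adjusted p = 0.159), and also with no count filter (-0.39, adjusted p = 0.0846). Averaged over both clones Hist4h4 was at -0.32 ± 0.13 (adjusted p = 0.0586), and 6 alternatives called it lower, among them DESeq2 (-0.31, adjusted p = 0.0487), removal of the chromosome shifts (-0.53, adjusted p = 0.00523) and leaving out WT replicate 1 (-0.47, adjusted p = 0.0175). Its stem-loop has the same 16 letters as that of Hist1h4d, which rose in KO clone 2.

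**Figure D3:**
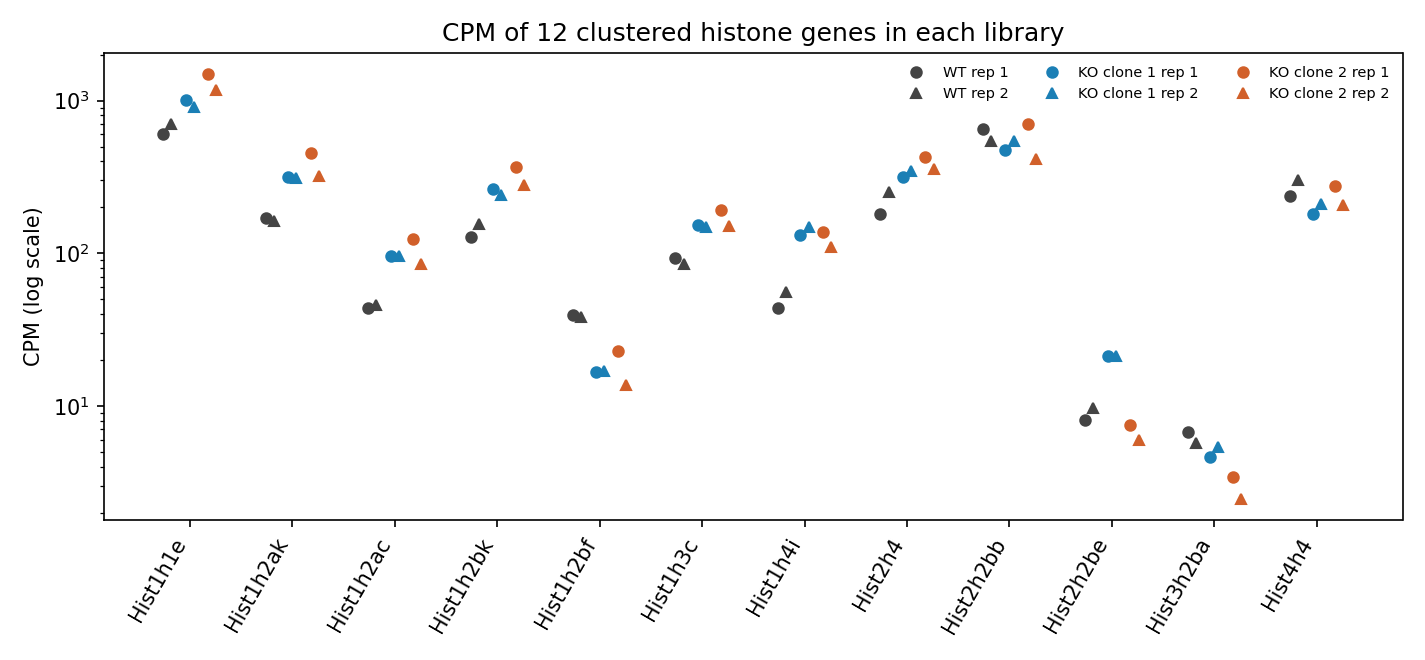
CPM on a log scale (vertical axis) of 12 members (horizontal axis) in each library. Circles are replicate 1 and triangles replicate 2 of WT (grey), KO clone 1 (blue) and KO clone 2 (orange). The rise of members such as Hist1h4i and Hist1h2ac exceeds the spread within groups, Hist1h2bf falls from 39.4 and 38.1 CPM in WT to at most 22.8, and Hist2h2bb and Hist4h4 overlap with WT.

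The clones differed from each other in fewer members. For KO clone 2 against KO clone 1, 7 of the 57 members were called higher and 4 lower, where 22% of all genes were called (11.3% higher, 10.7% lower), and the median was 0.25. Without KO clone 2 replicate 1 the median was -0.07, and without KO clone 2 replicate 2 it was 0.50. Hist2h2be, which encodes the H2B variant best known from olfactory neurons, had 8.09 and 9.62 CPM in WT, 21.1 and 21.1 in KO clone 1, and 7.48 and 6.0 in KO clone 2. Both KO clone 1 libraries lay above WT and both KO clone 2 libraries below it. The change between the clones was -1.65 ± 0.16 (adjusted p = 2.66e-05), the 1 call between the clones found in all 13 alternatives. Against WT it was 1.24 ± 0.16 (adjusted p = 3.44e-05) in KO clone 1 and -0.41 ± 0.17 (adjusted p = 0.058) in KO clone 2, so the call for the mean of both clones (0.42 ± 0.15) averages opposite directions. That mean call was lost when WT replicate 1 (0.31, adjusted p = 0.126), either KO clone 1 library (0.42 and 0.43, adjusted p = 0.0653 and 0.0601) or KO clone 2 replicate 1 (0.34, adjusted p = 0.0858) was left out. Hist2h2ac, which starts 238 bases away and is read in the other direction, was not called between the clones, at 0.17 ± 0.21 (adjusted p = 0.593).

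KO clone 2 replicate 1 stood apart among the members. It was above replicate 2 in 57 of 57 tested members, with a median ratio of 1.47 and 25 members over 1.5-fold, whereas across all genes tested it was higher in 51.6% with a median ratio of 1.01. In KO clone 1, replicate 1 was above replicate 2 in 16 of 57 members and none differed by over 1.5-fold. In WT it was above in 34, and 9 differed by over 1.5-fold. The counts between the clones depended on single libraries: 2 members were called (0 higher, 2 lower) without KO clone 2 replicate 1, 22 (21 higher, 1 lower) without KO clone 2 replicate 2, and 1 (lower) when either KO clone 1 library was left out. Without KO clone 2 replicate 1, 38 members were called higher and 6 lower for the mean of both clones, with 36 of the 38 calls kept and those of Hist1h1d and Hist2h2be lost, and KO clone 2 had 30 higher and 5 lower against WT.

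By position, 33 of the 36 members called higher lay in the Hist1 cluster on chromosome 13. Its 54 members span chr13:21715763-23934851, and of 47 tested those 33 were called higher and 1 lower for the mean of both clones, with a median of 0.81. The 13 members of Hist2 (chr3:96219865-96270132), Hist3 (chromosome 11) and Hist4 had 10 tested, of which 3 were higher and 1 lower, with a median of 0.05. Across all genes tested 26.5% were called higher and 29.3% lower, so the count of higher members outside Hist1 was close to that share. Summed over members, Hist1 was 1.48-fold and 1.86-fold of WT in KO clone 1 and KO clone 2, and Hist2 was 1.06-fold and 1.20-fold. Hist3 was 1.20-fold and 0.67-fold, and Hist4, a single gene, 0.72-fold and 0.90-fold. The KO clone 2 ratios depended on replicate 1. Hist1 had 13471 and 9221 CPM there against 6107 and 6123 in WT. Hist2 had 1643 and 1088 CPM against 1163 and 1119 in WT, so its KO clone 2 libraries overlapped with WT. The difference between clusters was not tested. The 2 blocks of Hist1, which lie 1487 kb apart, both held mostly higher members. In the first, 12 of 18 tested members were higher, with a median of 1.03. In the second, 21 of 29 were higher and 1 lower, with a median of 0.79.

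For the other genes at the clusters, counts for the mean of both clones are set against 26.5% of all genes called higher and 29.3% lower. At Hist1, of 19 tested non-histone protein-coding genes within the cluster or 1 Mb of its ends, 5 were called higher and 8 lower, and their median was -0.14. Around Hist2, 4 of 40 neighbours were higher and 17 lower (median -0.19), around Hist3 3 of 29 were higher and 13 lower (median -0.30), and around Hist4 6 of 10 were higher and 3 lower (median 0.50). After each chromosome's median shift was taken out, 39 members were called for the mean of both clones, which kept 37 of the 38 calls and lost that of Hist1h1d. With the same correction 25 members were called in KO clone 1, down from 33, and 39 in KO clone 2.

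**Figure D4:**
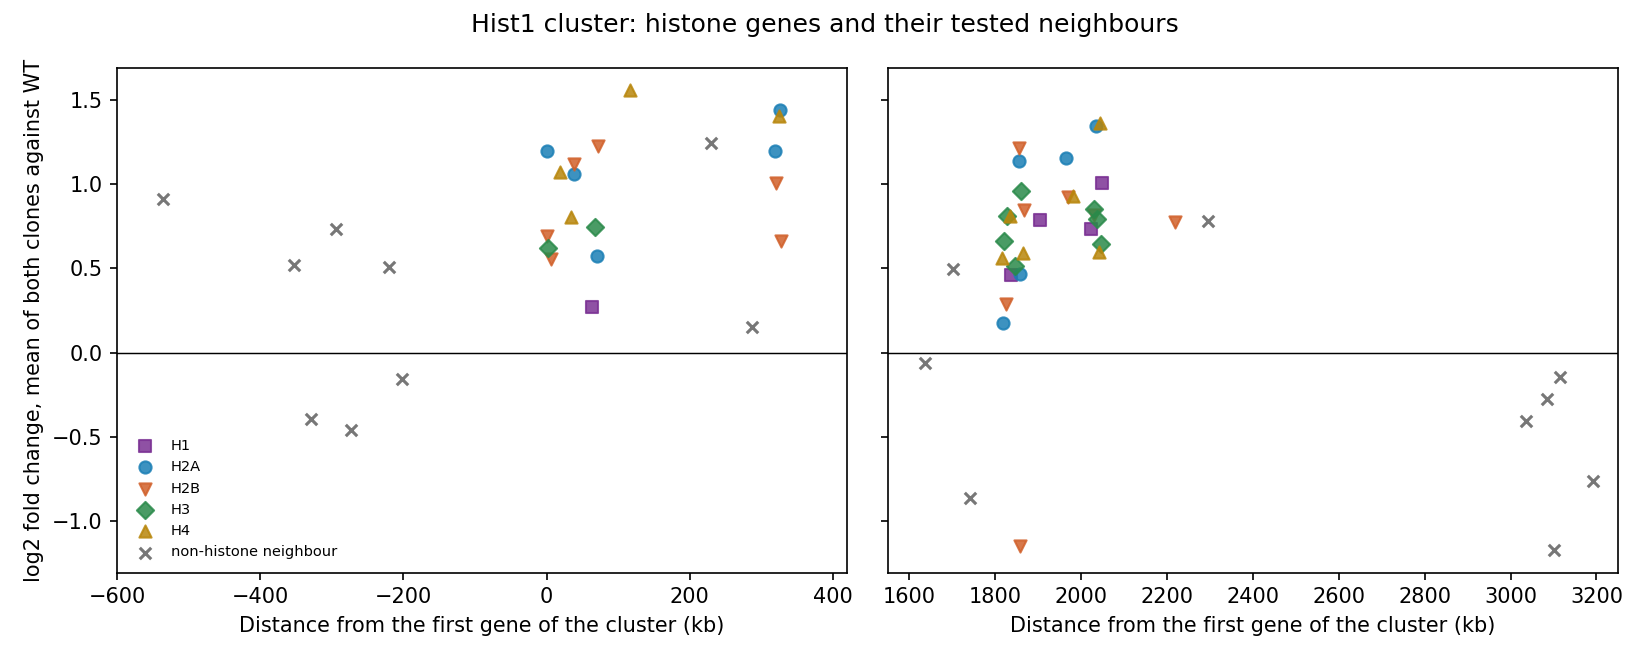
Log2 fold change of the mean of both clones against WT (vertical axis) by distance from the first histone gene of the Hist1 cluster on chromosome 13 (horizontal axis, kb), with the axis broken between the 2 blocks. Coloured symbols are the 47 tested histone genes by class and crosses are tested non-histone neighbours, of which Hfe (-6.14) lies off the axis. Histone genes of both blocks lie above 0 except Hist1h2bf, while the neighbours lie on both sides of 0.

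Levels were compared between members per kilobase of exon. Hist2h2bb was highest with 1454 CPM per kb on average over all libraries, followed by Hist1h2bb with 855, Hist1h1b with 824, Hist1h2ak with 734 and Hist1h4k with 601. In WT alone the same genes had 1564, 566, 718, 424 and 398 CPM per kb. In KO clone 1, Hist1h2ak and Hist1h2bb were above Hist1h1b, with 795 and 929.6 against 739 CPM per kb. These levels depend on the length of the gene model, which ran from 312 bases in Hist1h4k to 7425 in Hist1h1d. Without that division the order differs: Hist1h1e had 981 CPM on average over all libraries against 612 for Hist1h1b. The levels may also understate genes with near-identical copies, since reads that map to several places are in no gene's count.

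Sequence shared with other annotated genes limits what each count can say. A window counted as shared if another gene model held it on either strand, also a model at the same place. Hist2h2bb, for example, had 0% unique windows and 0% shared with other members. The shares below are therefore not a measure of copies among the members alone. In the tested members a median of 50.7% of the 50-base windows of a transcript occurred in no other annotated gene, and 26 members were under 50%. Of those 26, 14 were called higher and 1 lower for the mean of both clones (median 0.67). Of the 31 with 50% or more, 22 were higher and 1 lower (median 0.81). Across all genes tested 26.5% were higher and 29.3% lower. The 6 members with no read were Hist1h2ao, Hist1h2ap, Hist1h2bq, Hist1h2br, Hist2h2aa1 and Hist2h3c1, and at most 11.3% of the windows of each were unique. No read there means that none was assigned, and near-identical copies would not be seen. Hist1h4m and Hist2h2aa2 had 1 read each.

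H2A and H2B genes often lie head to head. The annotation gave 13 divergent pairs of members, separated by 175 to 659 bases, of which 12 join an H2A and an H2B gene and 1, Hist1h2bh with Hist1h3f, an H2B and an H3 gene. Both genes were tested in 10. In 2 of the 10 both genes were called higher for the mean of both clones, Hist1h2ac with Hist1h2bc and Hist1h2ak with Hist1h2bn. Of all single genes tested 26.5% were called higher, and no share over other gene pairs was computed. Within a pair the log2 fold changes differed by a median of 0.36, from 0.06 in Hist1h2ak and Hist1h2bn to 1.62 in Hist1h2bf and Hist1h2ad. Hist1h2bc had 73.8 and 88.8 CPM in WT, 133 and 126 in KO clone 1, and 216 and 154 in KO clone 2 and rose by 0.93 ± 0.14 (adjusted p = 7.48e-05). In each of the other 8 pairs 1 member was called.

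The members were also divided by whether their transcript model holds a stem-loop. Of 39 tested with one, 25 were higher and 2 lower for the mean of both clones, with a median of 0.79. Of 18 without, 11 were higher and 0 lower, with a median of 0.72. Across all genes tested 26.5% were higher and 29.3% lower. No difference between the members with and without a stem-loop was tested.

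A set of 4 lists of related genes were counted for the mean of both clones, where 26.5% of all genes were called higher and 29.3% lower. The first holds genes that make and process histone RNA. Of 39 genes listed 37 were tested, and 15 were called higher and 7 lower for the mean of both clones, with a median of 0.14. Npat, which switches on histone gene transcription, had 79.1 and 66.0 CPM in WT, 49.5 and 51.7 in KO clone 1, and 31.0 and 36.8 in KO clone 2 and fell in both clones (-0.81 ± 0.11, adjusted p = 3.99e-05). Its partner at histone locus bodies Casp8ap2 was called lower in KO clone 2 and not in KO clone 1, with -0.42 ± 0.16 (adjusted p = 0.0411) for the mean. Slbp, the stem-loop binding protein, was not called (-0.19 ± 0.11, adjusted p = 0.153). Of the U7 snRNP components, Lsm10 fell by 1.18 (adjusted p = 5.46e-05) and Lsm11 was not called (-0.09 ± 0.11, adjusted p = 0.531). Zfp473, which takes part in the same cleavage, was at -0.60 ± 0.17 (adjusted p = 0.00998).

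Other members of that list rose. E2f4, a transcription factor of the cell cycle, rose by 1.13 ± 0.10 (adjusted p = 5.77e-07), and Ccne1, the cyclin that drives entry into S phase, had 6.81 and 7.09 CPM in WT, 14.1 and 16.3 in KO clone 1, and 29.4 and 26.1 in KO clone 2 and rose by 1.56 ± 0.14 (adjusted p = 7.96e-07). Of the factors that degrade histone RNA, Lsm4 (0.86 ± 0.11) and Upf1 (0.91 ± 0.12) rose while Xrn1, the 5′ exonuclease, fell (-0.93 ± 0.11).

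Histone chaperones, which carry new histones to DNA, showed 11 higher and 7 lower of 29 tested, with a median of 0.06. Ssrp1, a FACT subunit, rose by 0.59 ± 0.10 (adjusted p = 0.000162), and Chaf1a, the large CAF-1 subunit, by 0.48 ± 0.09 (adjusted p = 0.00076). Asf1a fell by 0.60 (adjusted p = 0.0013). Histone genes outside the clusters gave 2 higher and 3 lower of 9 tested, with a median of -0.13. H2afj rose by 1.55 ± 0.11 (adjusted p = 9.44e-08), whereas H2afx, the H2A variant of the DNA damage response, fell by 0.70 (adjusted p = 0.000282). Among 16 DNA replication genes 7 were higher and 4 lower, with a median of 0.14. Mcm5 and Mcm2, subunits of the replicative helicase, rose by 0.68 ± 0.10 and 0.63 ± 0.10, and Prim1, the primase subunit, fell by 0.68.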

How the data were processed

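The members and gene lists were chosen with earlier results of these data known. Counts of reads per gene (raw, 1 table per library) were deposited by the authors; per the submitters' processing notes, FastQC, STAR 2.6.0c and GRCm38 were used, and the annotation release behind the counts is not given in the sources used here. Column 4, the reverse-strand count, was taken, as 92.3% to 95.7% of stranded reads were in it. Entries without a gene did not enter library sizes: unmapped reads (8.49% to 14.0% of the total), multimapping reads (24.7% to 29.3%), reads outside genes (9.21% to 13.5%) and ambiguous reads (1.90% to 2.74%). Floors of 3 counts cover counting error only, whereas each SE comes from the fit and includes the spread between libraries. Symbols and coordinates came from GENCODE M21, which lacked 67 of the IDs.

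Tests used R 4.3.3 and edgeR 4.0.16: filterByExpr (13755 of 26172 genes with a read kept), TMM scaling, and a robust quasi-likelihood fit with 1 term per group over all 6 libraries (3 residual degrees of freedom, biological coefficient of variation 10.3%). Calls required an adjusted p (Benjamini-Hochberg) under 0.05. CPM used TMM-scaled library sizes. The procedure was also run on simulated counts in which every gene had the same dispersion. That setting is simpler than these data, so the run says nothing about single calls here. Over all 13755 genes, same-numbered libraries did not deviate together (correlations -0.16, 0.08 and 0.005). That does not decide if replicate numbers pair libraries among the members. In the tested H2A genes the median ratio of replicate 1 to replicate 2 was 1.47 in WT, 0.96 in KO clone 1 and 1.69 in KO clone 2. Alternatives were DESeq2 1.42.0, upper-quartile scaling, other count filters, unstranded counts, a replicate block, chromosome shifts removed, and each library left out.

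Members named in full were, per class, the 3 with the lowest adjusted p (mean of both clones) and the 2 with the highest mean CPM, every member called lower in a clone, and those called between the clones. From other lists, Slbp, Npat, Casp8ap2, Lsm10, Lsm11, Zfp473 and up to 5 genes per list called in both clones could be named. Other members named were chosen after their values were seen. Promoters of the most abundant member per kilobase of each class were printed. That of Hist1h2bf was added after its values were seen, and those of the most changed members were left out for length. No genome sequence or protein table was used here.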

Additional observations from a re-analysis of the deposited data

Results flagged for a closer look

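The change between the clones was itself tested, and 11 members passed (KO clone 2 against KO clone 1, edgeR's quasi-likelihood test, log2 scale). Higher in KO clone 2 were Hist1h1b (0.46), Hist1h4h (0.60), Hist1h4f (0.42), Hist1h4d (0.47), Hist1h1e (0.47), Hist1h2bc (0.51) and Hist2h2ab (0.56). In these 7 genes KO clone 2 replicate 1 was above replicate 2, as it was in all 57 tested members. Lower in KO clone 2 were Hist2h2be (-1.65), Hist2h3c2 (-0.78), Hist3h2ba (-0.78) and Hist3h2a (-0.91). These 4 genes all lie outside the Hist1 cluster, and KO clone 2 replicate 1 was the higher of its pair in them too. Except for Hist2h2be, each of these calls was lost in at least 1 of 13 alternatives.

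Reads on the strand opposite to the members, in a column that the comparisons do not use, came to 60.7 and 110.4 CPM in WT, 113 and 115 in KO clone 1, and 145 and 148 in KO clone 2 when summed over the 67 genes. The median of the 4 knockout libraries was 130.0 CPM, above both WT libraries.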

How the results depend on the processing

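No called value of a named member changed sign under the alternatives. Hist1h2ag, which was not called, went from 1.44 to -0.07 with unstranded counts. Between the clones the median over the members went from 0.25 to -0.07 without KO clone 2 replicate 1, where 0 members were higher and 2 lower. Leaving out each library in turn gave 24 to 41 called members in KO clone 1, 33 to 48 in KO clone 2, 31 to 51 for the mean of both clones and 1 to 22 between the clones, where the 1 called when either KO clone 1 library was left out was lower and 22 (21 higher, 1 lower) without KO clone 2 replicate 2. A lone library was assumed to vary like the other groups. Between the clones, 7 members (3 higher, 4 lower) were called with no count filter; the cause was not tested. That setting also moved the median of all genes by 0.115 on the log2 scale for the mean of both clones. With a replicate block, 37 members were called in KO clone 1, 44 in KO clone 2, 45 for the mean and 9 between the clones. The members called in every one of the 13 alternatives, in the same direction, were 17 of 33 in KO clone 1, 28 of 40 in KO clone 2, 26 of 38 for the mean and 1 of 11 between the clones. Unstranded counts lowered the summed H2A level to 232 CPM in WT, 336 in KO clone 1 and 376 in KO clone 2. They lowered the H2B level to 1157 CPM in WT, 1783 in KO clone 1 and 2181 in KO clone 2. Hist2h2bb, an H2B gene, had 0 unstranded reads against 60100 reverse-strand reads. With unstranded counts, a read in a stretch where a member overlaps a gene on the other strand counts for neither. All 18 H2A genes have such a stretch. The summed H4 level in WT became 1754 CPM with unstranded counts and 1769 with upper-quartile scaling. With 2 libraries per group and clones that cannot be told apart from genotype, small differences between members were not resolved, and near-identical copies limit single-gene values.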

Other observations

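The pseudogene Hist3h2bb-ps, in the Hist3 cluster at chr11:58954048-58954512, had 2.76 and 3.42 CPM in WT, 1.54 and 2.38 in KO clone 1, and 1.59 and 1.94 in KO clone 2. Like Hist3h2ba of the same cluster, it was lower in all 4 knockout libraries, with a log2 fold change of -0.75 for the mean of both clones (edgeR, adjusted p = 0.018). Hist1h2al, a processed pseudogene on chromosome 13 far from the Hist1 cluster, had 53.7 and 56.3 CPM in WT, 56.99 and 57.3 in KO clone 1, and 75.1 and 48.4 in KO clone 2, with overlapping groups.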
